A study of Homo sapiens with 6 samples.

Results

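Solute carriers are membrane proteins that move ions, metals, sugars, amino acids, lipids and metabolites across the plasma membrane and the membranes of organelles, and most human ones carry a gene symbol that starts with SLC. The genes described here are those whose probe symbol is SLC with a family number, the letter A and a member number, or SLCO with a number, leaving out antisense transcripts and pseudogenes. There were 21 such genes among the 14884 genes with a named probe, and each had 1 probe. Of these, 17 encode carriers, SLC2A4RG encodes a transcription factor, and SLC2A1-DT, SLC20A1-DT and SLC9A3-OT1 are long noncoding RNAs named after a neighbouring carrier gene. They were measured in ARPE-19, an established line of human retinal pigment epithelium, on 3 arrays of cells given 250 µM FAC (in iron research the usual short form of ferric ammonium citrate) for 2 days and 3 arrays of untreated (vehicle) cells kept equally long. All cultures had been confluent and at 1% serum for 4 weeks to differentiate, and both groups were then kept without serum. The study labels the 3 samples of each group as biological replicates.

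The symbols cover a small share of the solute carriers. RefSeq lists 362 protein-coding human genes with symbols of this form in 57 families, and 18 of them, in 12 families, had a named probe (4.97%). None of 32 carriers on a list for iron, zinc, glucose, lactate, cystine, glutamine, fatty acid and osmolyte transport was among them. SLC11A2, SLC39A14, SLC40A1, SLC2A1, SLC16A3, SLC7A11 and SLC27A4 are on that list and were not analysed here. Metal, glucose, lactate and fatty acid carriers of the classical families are therefore not described, and the carriers that are described are mostly major facilitator proteins of high family number, lysosomal carriers and ornithine carriers of mitochondria.

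As background, major facilitator proteins are single-chain carriers that alternate between opening to either side of a membrane, and many of those in the high SLC families still have no settled substrate. In retinal pigment epithelium, carriers supply the photoreceptors with glucose and ions and remove lactate and water. Iron enters the regulation of many genes through enzymes that need it, among them the prolyl hydroxylases that mark hypoxia-inducible factors for breakdown.

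The arrays were alike as wholes. Median log2 intensities lay between 6.03 and 6.09, and Pearson's r between any 2 arrays over all probes lay between 0.991 and 0.995. Of 24 markers of retinal pigment epithelium, 19 were measured. OTX2 (11.04 ± 0.06 with FAC and 11.10 ± 0.10 untreated) and TYRP1 (9.87 ± 0.06 with FAC and 10.07 ± 0.52 untreated) had bright probes. RPE65, the isomerase that defines the mature tissue, measured 5.69 ± 0.08 with FAC and 5.67 ± 0.15 untreated, at percentile 22.6 of the tested genes, and the table gives no call of presence. RPE65, BEST1 and LRAT were the 3 of the 19 among the dimmest 33.3% of tested genes. Bright probes were not confined to this list. CD68 (blood and endothelial cells) lay at percentile 98.5, SYT1 (neurons, glia and photoreceptors) at 85.3 and LUM (fibroblasts) at 81.6. On those lists 3 of 6, 3 of 7 and 1 of 3 measured markers were among the dimmest 33.3%. Brightness of a probe does not identify the cells here. Of the 19 markers of retinal pigment epithelium, VEGFA and RDH10 fell, beside 1.85% of all genes that fell, and none rose. VEGFA came with the longer list counted here and was not among the markers planned for reading cell type. At an unadjusted p under 0.05, 2 of the 19 had higher values, beside 8.14% of all genes, and 3 had lower values, beside 9.06%. Of 25 measured cell cycle genes 15 rose, beside 1.88% of all genes that rose, and the part of cell division in the values below was not tested.

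Promoter sequence is shown for the 3 members with the smallest p-values among the 17 that have a RefSeq promoter entry, and for the 1 stretch that lies between a noncoding member and a glucose carrier gene. The sequences are the 250 bases before the annotated start in RefSeq (GRCh38.p14), 5′ to 3′ on the gene's strand. Capitals mark the core of the hypoxia response element, ACGTG or GCGTG, on either strand, and a palindromic CACGTG counts once for each strand. The first is SLC75A1, at chr4:2934826-2935075 on the minus strand, which holds 5 cores; the first of 2 annotated starts was used.
SLC75A1: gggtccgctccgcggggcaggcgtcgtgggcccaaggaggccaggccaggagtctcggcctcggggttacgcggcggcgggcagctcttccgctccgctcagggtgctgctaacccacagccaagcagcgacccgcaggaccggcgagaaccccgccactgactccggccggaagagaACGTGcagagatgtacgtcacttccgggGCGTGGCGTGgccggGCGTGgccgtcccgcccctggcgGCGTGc
SLC60A2 lies at chr6:111259089-111259338 on the plus strand, and its 250 bases hold 3 cores.
SLC60A2: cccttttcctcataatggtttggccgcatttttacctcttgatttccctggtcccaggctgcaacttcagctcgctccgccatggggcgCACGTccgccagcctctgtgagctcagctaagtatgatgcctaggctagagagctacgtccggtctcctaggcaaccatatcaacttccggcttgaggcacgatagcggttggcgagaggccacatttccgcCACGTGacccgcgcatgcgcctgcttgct
Its family partner SLC60A1 lies at chr1:205568764-205569013 on the plus strand, has a GC content of 84.4% against 58.0% for SLC60A2, and holds no core.
SLC60A1: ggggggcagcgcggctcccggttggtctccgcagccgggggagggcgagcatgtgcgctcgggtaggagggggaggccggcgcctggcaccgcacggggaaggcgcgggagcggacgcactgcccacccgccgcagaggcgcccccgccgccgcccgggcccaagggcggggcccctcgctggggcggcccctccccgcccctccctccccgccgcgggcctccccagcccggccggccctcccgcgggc
SLC2A1-DT runs away from SLC2A1, the gene of the glucose carrier GLUT1, and 180 bases lie between the annotated starts, at chr1:42958869-42959048, printed on the plus strand. They hold no core. The full 250 bases before its start run on into SLC2A1 and are what the counts over promoters use. They hold 2 hypoxia cores and 2 matches to the loose metal pattern described after the sequence.
SLC2A1-DT: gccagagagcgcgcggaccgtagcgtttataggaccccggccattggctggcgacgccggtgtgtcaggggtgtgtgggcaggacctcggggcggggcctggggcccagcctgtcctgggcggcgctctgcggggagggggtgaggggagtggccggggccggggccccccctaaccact

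Of 27305 RefSeq promoters, 1 for each gene, 43.1% hold at least 1 hypoxia core in the 250 bases before the start, as do 11 of the 17 members with an entry. A loose form of the core of the metal response element, TGCNCNC on either strand, is held by 48.4% of all promoters and by 11 of the 17 members. The element's core takes only A or G at the first N, so a match to this pattern need not be a core. SLC60A1 holds 4 matches to this loose pattern, and SLC75A1 and SLC60A2 hold 1 each. The letters were searched with no allowance for mismatches and are a description of the sequence.

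The comparison of FAC-treated with untreated cells asks which carriers respond to the iron salt. None of the 21 genes passed at an adjusted p under 0.05 (limma, Benjamini-Hochberg over all 14884 genes), where 3.73% of all genes tested passed. At an unadjusted p under 0.05 there were 4 members, SLC33A2, SLC75A1, SLC60A2 and SLC60A1, and all 4 had lower values with FAC. That is 19.0% of the members, beside 17.2% of all genes at the same unadjusted threshold. The arrays of FAC-treated and untreated cells did not overlap in 6 members (28.6%), beside 23.4% of all genes. The FAC arrays lay below in 5 of the 21 members (23.8%), beside 13.0% of all genes, and above in 1 of the 21, beside 10.4% of all genes. The log2 changes of the 21 members ran between -0.24 and 0.12 with a median of -0.055, beside a median of -0.004 over all genes. In alternatives added after the data were seen, the members' median ran between -0.07 with median centring and -0.03 without FAC replicate 3. It was -0.032 with quantile normalization. The bounds of the 95% intervals lay, at the median over members, 0.14 log2 units on either side of the change. No interval of a member reached a 1.5-fold change in either direction, and the widest bounds allowed a 1.3-fold lower value (SLC60A1) and a 1.23-fold higher one (SLC20A1-DT).

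**Figure D1:**
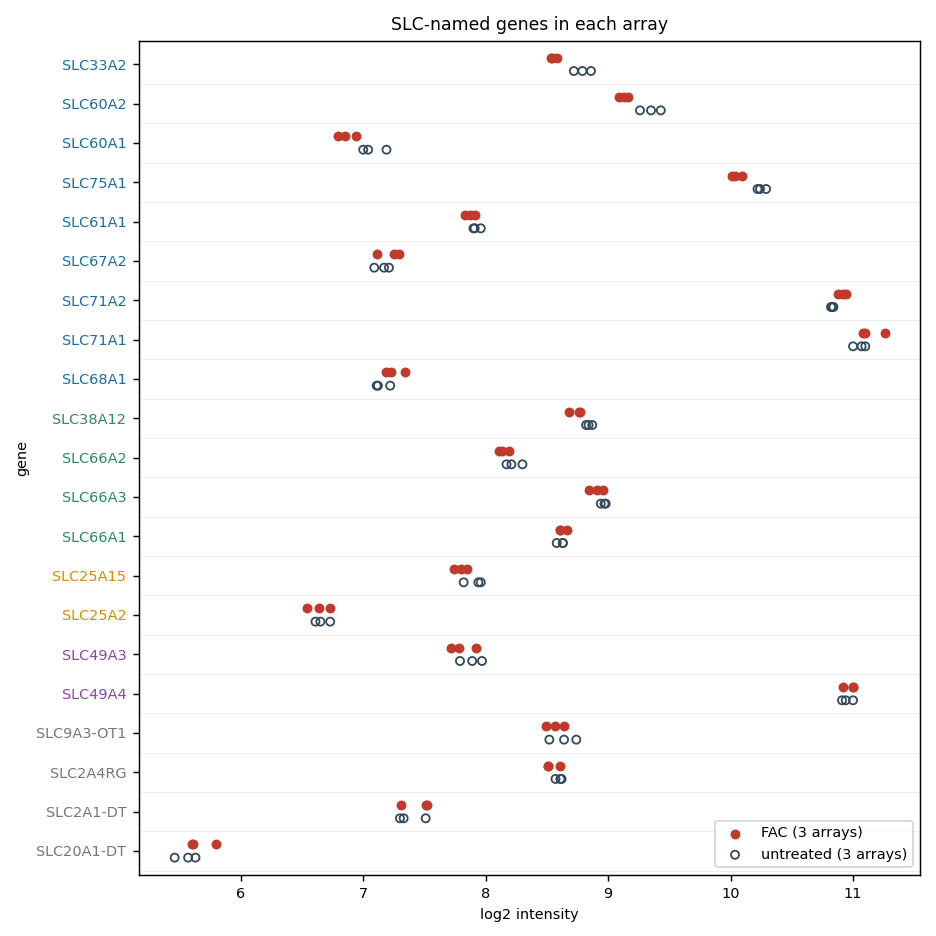
Log2 intensity of each SLC-named gene (x axis) in the 3 FAC arrays (filled red) and the 3 untreated arrays (open), with 1 gene a row (y axis) and the colour of each gene name marking its role as in the plot of changes with intervals. The red points of SLC33A2, SLC60A2, SLC60A1, SLC75A1 and SLC38A12 lie left of all open ones, those of SLC71A2 lie right of them, and the groups overlap in the other 15 genes.

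The 9 major facilitator carriers held all 4 members with a small unadjusted p. SLC33A2, formerly MFSD3, shares its family with the acetyl-CoA carrier of the endoplasmic reticulum. It measured 8.54, 8.53 and 8.58 log2 units on the FAC arrays, against 8.72, 8.79 and 8.86 on the untreated arrays. Every FAC value lay below every untreated one, and the FAC values were the tighter set. The change was -0.24 ± 0.06 (SE, 95% interval -0.37 to -0.11, 0.846-fold, adjusted p = 0.0632), the lowest adjusted p among the members. Over 14 alternative settings the change stayed between -0.28 and -0.21, and the gene passed in 2 of them, at adjusted p = 0.0274 without the dimmest 33.3% of genes and adjusted p = 0.0165 with a variance prior that follows intensity.

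SLC75A1, formerly MFSD10 or TETRAN, is a carrier of organic anions related to bacterial tetracycline exporters. Its FAC arrays gave 10.04, 10.01 and 10.09, against 10.22, 10.24 and 10.29 on the untreated arrays. The groups did not overlap, and within each of them the 3 arrays lay close together. The change was -0.20 ± 0.05 (SE, 95% interval -0.32 to -0.08, 0.87-fold, adjusted p = 0.0914). It too passed in 2 of 14 alternatives, at adjusted p = 0.0407 without the dimmest 33.3% and adjusted p = 0.0111 with the intensity-dependent prior.

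SLC60A2 and SLC60A1 are the 2 members of 1 family, formerly MFSD4B and MFSD4A. The rat form of SLC60A2 was described as a sodium-dependent glucose carrier of the kidney. SLC60A2 measured 9.16, 9.09 and 9.13 with FAC and 9.26, 9.43 and 9.35 untreated. The groups did not overlap, with untreated replicate 1 nearest to the FAC arrays. Its change was -0.22 ± 0.06 (SE, 95% interval -0.36 to -0.08, adjusted p = 0.11), and it passed in 1 alternative, at adjusted p = 0.028 with the intensity-dependent prior. SLC60A1, whose substrate is not settled, measured 6.94, 6.85 and 6.79 with FAC and 7.04, 7.0 and 7.19 untreated. The groups again did not overlap, and FAC replicate 1 lay closest to the untreated arrays. The change was -0.22 ± 0.07 (SE, 95% interval -0.38 to -0.06, adjusted p = 0.159), and SLC60A1 passed in none of 14 alternatives, whose adjusted p ran between 0.0869 and 0.363. SLC60A1-AS1, the antisense transcript at the same locus, measured 3.97 ± 0.07 with FAC and 3.85 ± 0.26 untreated (change 0.12 ± 0.12 SE). Its level was at percentile 4.2 of the tested genes, and the overlap of its values leaves no direction to compare with SLC60A1.

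The other 5 major facilitator members had changes between -0.06 and 0.11. SLC71A1 and SLC71A2, formerly MFSD14A and MFSD14B, are sugar-carrier-like proteins first described as hippocampus-abundant transcripts, and loss of the first causes male infertility in mice. SLC71A2 measured 10.94, 10.88 and 10.92 with FAC, against 10.82, 10.83 and 10.84 untreated. It was the 1 member whose FAC arrays all lay above the untreated ones, by 0.08 ± 0.05 (SE, 95% interval -0.03 to 0.20, adjusted p = 0.464). SLC71A1 measured 11.26, 11.08 and 11.10 with FAC, against 11.10, 11.00 and 11.07 untreated, and the groups overlapped (0.09 ± 0.07, adjusted p = 0.575). FAC replicate 1 stood above the other 5 arrays for this gene. The proteins are close relatives, and how far each probe reads the other gene was not tested. SLC61A1, formerly MFSD5, a carrier of molybdate, the anion from which the molybdenum cofactor is made, measured 7.87 ± 0.04 with FAC and 7.92 ± 0.03 untreated (-0.06 ± 0.05, 95% interval -0.18 to 0.06). SLC68A1, formerly MFSD13A, measured 7.25 ± 0.08 with FAC and 7.15 ± 0.06 untreated (0.11 ± 0.06, adjusted p = 0.449). SLC67A2, formerly MFSD9, measured 7.21 ± 0.09 with FAC and 7.16 ± 0.06 untreated (0.06 ± 0.07, adjusted p = 0.716). Together with the 2 SLC49 carriers described below, which are major facilitator proteins too, 4 of 11 had lower values at an unadjusted p under 0.05, beside 9.06% of all genes with lower values at that threshold. The classes were drawn up with these values known.

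**Figure D2:**
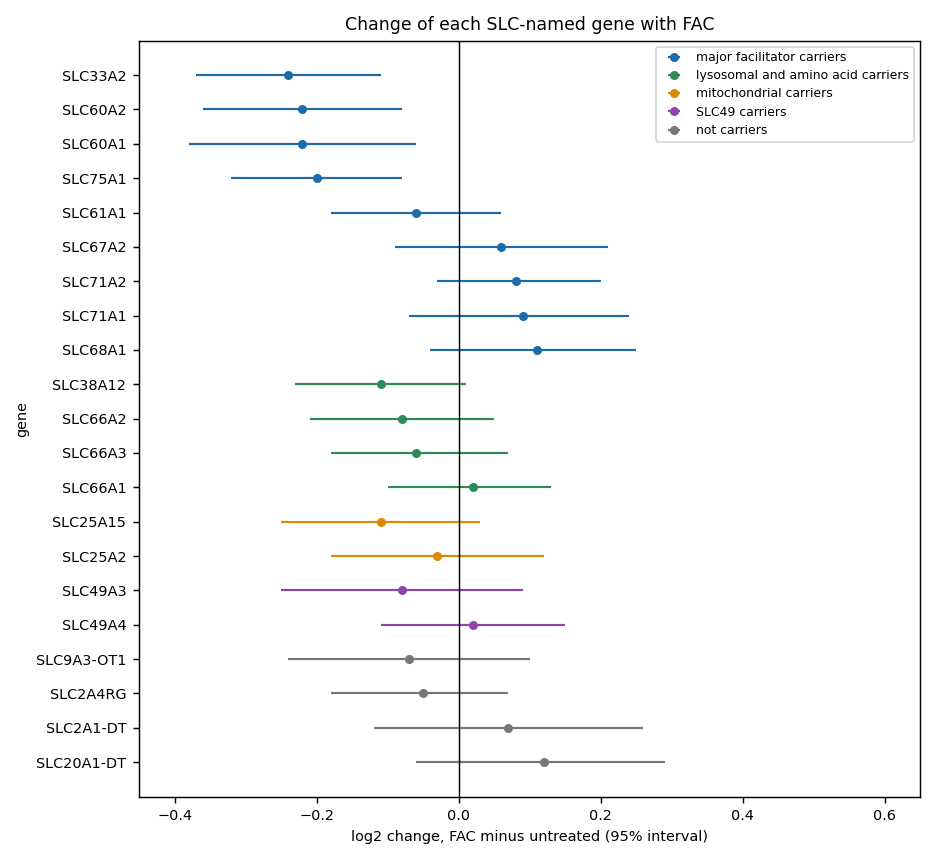
Log2 change of each SLC-named gene, FAC minus untreated (x axis), with its 95% interval from limma (bars), 1 gene a row (y axis) and a colour for each role. The intervals of SLC33A2, SLC60A2, SLC60A1 and SLC75A1 lie left of 0, and the other 17 hold 0.

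Lysosomal and amino acid carriers stayed within narrow bounds. SLC66A1, known as PQLC2, exports lysine and arginine from lysosomes. It measured 8.61, 8.61 and 8.66 with FAC, against 8.63, 8.58 and 8.63 untreated. The 6 values were interleaved, and the change of 0.02 ± 0.05 (SE) had a 95% interval of -0.10 to 0.13 (adjusted p = 0.912). The related PQ-loop genes SLC66A2 and SLC66A3, whose proteins are less studied, had changes of -0.08 ± 0.06 (8.14 ± 0.04 with FAC and 8.22 ± 0.07 untreated) and -0.06 ± 0.05 (8.90 ± 0.06 with FAC and 8.96 ± 0.02 untreated), with adjusted p = 0.549 and 0.656. SLC38A12, formerly TMEM104, stands by its symbol in the family of neutral amino acid carriers. Its values of 8.68, 8.76 and 8.77 with FAC lay below the 8.87, 8.82 and 8.84 of untreated cells without overlap. The distance was small, with a change of -0.11 ± 0.05 (SE, 95% interval -0.23 to 0.01, adjusted p = 0.351).

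SLC25A15 and SLC25A2 exchange ornithine for citrulline across the inner mitochondrial membrane, a step of the urea cycle, and loss of SLC25A15 causes the hyperornithinemia-hyperammonemia-homocitrullinuria syndrome. SLC25A15 measured 7.85, 7.80 and 7.74 with FAC, against 7.82, 7.94 and 7.96 untreated. The groups overlapped through untreated replicate 1 (-0.11 ± 0.06, 95% interval -0.25 to 0.03, adjusted p = 0.422). SLC25A2 measured 6.54, 6.73 and 6.64 with FAC, against 6.73, 6.61 and 6.65 untreated, with both groups spread over the same range (-0.03 ± 0.07, adjusted p = 0.872). The 2 genes are close copies, so their probes may read each other's transcripts.

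The SLC49 family is known for the heme exporter FLVCR1, and 2 of its less studied members carry SLC symbols here. They are major facilitator proteins too and are given apart because of that family. SLC49A4, formerly DIRC2, is a protein of the lysosomal membrane. It measured 11.00, 11.00 and 10.92 with FAC, against 11.00, 10.91 and 10.94 untreated, which leaves a change of 0.02 ± 0.05 (95% interval -0.11 to 0.15, adjusted p = 0.888). SLC49A3, formerly MFSD7, measured 7.72, 7.78 and 7.92 with FAC, against 7.79, 7.89 and 7.97 untreated (-0.08 ± 0.07, adjusted p = 0.642). In both genes the groups overlapped. FLVCR1 itself, under its own symbol, had a 95% interval of -0.13 to 0.13 (adjusted p = 0.977).

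Among the 4 members that are not carriers none came near the threshold. SLC2A1-DT, which starts head to head with the GLUT1 gene across the 180 bases printed above, measured 7.51, 7.52 and 7.31 with FAC, against 7.33, 7.30 and 7.51 untreated. In each group 1 array lay among the values of the other group, FAC replicate 3 on the low side and untreated replicate 3 on the high side, and the change was 0.07 ± 0.08 (95% interval -0.12 to 0.26, adjusted p = 0.747). SLC20A1-DT, the divergent transcript of a phosphate carrier gene, was the 1 member among the dimmest 33.3% of tested genes. It measured 5.80, 5.61 and 5.60 with FAC, against 5.46, 5.63 and 5.57 untreated (0.12 ± 0.08, adjusted p = 0.486), so that its highest value was a FAC array and its lowest an untreated one. SLC9A3-OT1, which lies by a sodium-proton exchanger gene, measured 8.57 ± 0.08 with FAC and 8.63 ± 0.11 untreated (-0.07 ± 0.07, adjusted p = 0.712). SLC2A4RG, a regulator of the gene of the insulin-responsive glucose carrier GLUT4, measured 8.54 ± 0.06 with FAC and 8.60 ± 0.02 untreated (adjusted p = 0.67).

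**Figure D3:**
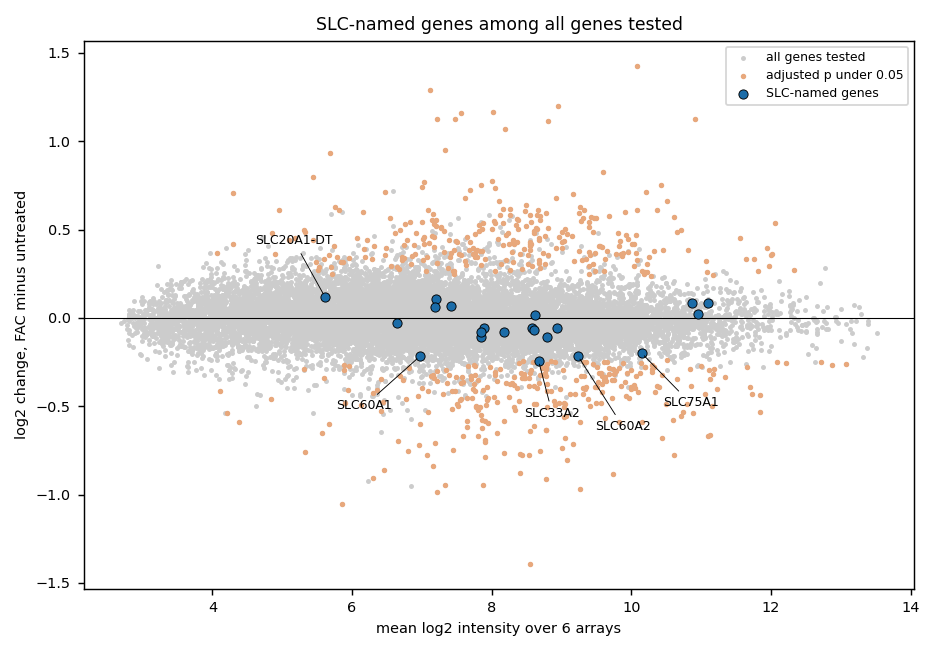
Log2 change, FAC minus untreated (y axis), against mean log2 intensity over 6 arrays (x axis), for all 14884 genes tested (grey), those with an adjusted p under 0.05 (orange) and the 21 SLC-named genes (blue). The blue points lie between -0.24 and 0.12, and none of them is among the 555 orange ones.

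The rule leaves out 12 named SLC symbols of 11 antisense transcripts and 1 pseudogene, and none of them passed the test either, with 1 (8.33%) at an unadjusted p under 0.05, beside 17.2% of all genes. SLC7A11-AS1, antisense to the gene of the cystine carrier, measured 4.79, 4.77 and 4.78 with FAC, against 4.57, 4.74 and 4.53 untreated. The groups did not overlap (0.17 ± 0.07, adjusted p = 0.248), at percentile 10.5 of the tested genes by level. A further 5 SLC symbols lack the A or the number after it, and of these SLC51A, 1 subunit of the bile acid and steroid carrier of basolateral membranes, had the smallest p (-0.18 ± 0.10, adjusted p = 0.447), while the gene of the other subunit, SLC51B, measured 5.74 ± 0.12 with FAC and 5.69 ± 0.12 untreated.

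Many genes that belong to SLC families keep an older symbol. RefSeq gives an SLC family name as a synonym for 71 genes with other symbols, and 54 of them had a named probe. Of these 54, SPNS2 and SV2B rose and NIPAL3 and NIPAL4 fell, beside the 3.73% of all genes called; the median change was -0.039. At an unadjusted p under 0.05 there were 14 (25.9%, beside 17.2% of all genes). SPNS2, which exports sphingosine-1-phosphate, rose by 1.13 ± 0.06 (2.18-fold, adjusted p = 0.000362). NIPAL4 belongs to a family of magnesium carriers and is needed for the lipid barrier of skin. It measured 8.43, 8.41 and 8.52 with FAC, against 9.29, 8.78 and 9.20 untreated. The FAC arrays lay below all untreated ones, and untreated replicate 2 was the lowest of its group. The change was -0.63 ± 0.12 (SE, 0.645-fold, adjusted p = 0.0348), and without untreated replicate 2 it became -0.79. Leaving out any 1 of the other 5 arrays ended the call (adjusted p between 0.0878 and 0.134), as did testing every probe of the table (adjusted p = 0.121). NIPAL3 of the same family measured 9.58, 9.55 and 9.57 with FAC, against 9.90, 9.92 and 9.94 untreated, 2 tight groups far apart (-0.35 ± 0.05 SE, adjusted p = 0.0109). That call was lost without FAC replicate 1 (adjusted p = 0.0553), FAC replicate 2 (0.0506) or untreated replicate 3 (0.0547), with the replicate number as a block (0.0599), and with every probe of the table tested (0.061). A second, dimmer probe of NIPAL3 gave -0.16 ± 0.12, and the mean of both probes did not pass (adjusted p = 0.0935). SV2B, a glycoprotein of synaptic vesicles, measured 5.80, 5.89 and 5.84 with FAC, against 5.58, 5.63 and 5.58 untreated (0.25 ± 0.05 SE, adjusted p = 0.0439), and it passed in 2 of 13 alternatives. Leaving out any 1 of the 6 arrays ended the SV2B call (adjusted p between 0.071 and 0.145).

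**Figure D4:**
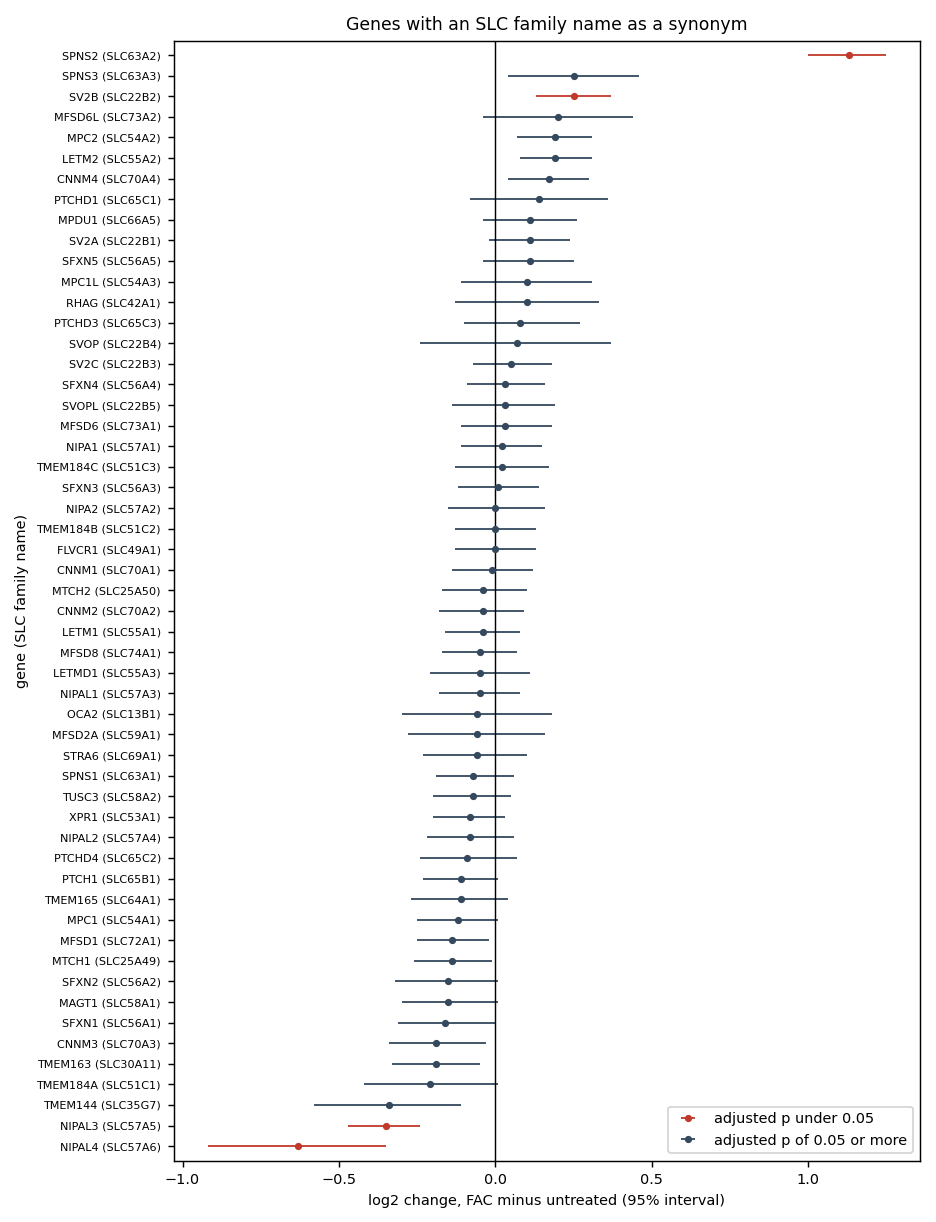
Log2 change, FAC minus untreated (x axis), with its 95% interval (bars) for the 54 measured genes that have an SLC family name as a synonym, named in brackets after the symbol (y axis). SPNS2 at 1.13 and SV2B rose and NIPAL3 and NIPAL4 fell (red), and the other 50 did not pass the test.

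Carriers of pyruvate, serine, zinc, phosphate and retinol were among the 50 genes of this set that did not pass. The 2 subunits of the mitochondrial pyruvate carrier had changes of opposite sign, 0.19 ± 0.05 for MPC2 (95% interval 0.07 to 0.31, adjusted p = 0.102) and -0.12 ± 0.06 for MPC1 (95% interval -0.25 to 0.01, adjusted p = 0.32). SFXN1, the mitochondrial serine carrier, had -0.16 ± 0.07 (adjusted p = 0.288). TMEM163, a zinc carrier of vesicles, had -0.19 ± 0.06 (adjusted p = 0.164), and the phosphate exporter XPR1 had -0.08 ± 0.05 (adjusted p = 0.444). STRA6, the retinol uptake receptor of retinal pigment epithelium, had -0.06 ± 0.07 (adjusted p = 0.729).

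Of 27 listed partners and regulators of carriers, 20 were measured and none passed, with 0 higher and 2 lower (10.0%) at an unadjusted p under 0.05, beside 9.06% of all genes lower at that threshold. These 20 include SLC2A4RG, which is counted among the members too. The groups did not overlap in 7 of the 20, all with the FAC arrays below (35.0%, beside 13.0% of all genes). BSG, the chaperone that brings lactate carriers to the cell surface, measured 12.33, 12.37 and 12.35 with FAC, against 12.41, 12.41 and 12.44 untreated. The groups did not overlap, but the change was only -0.07 ± 0.05 (95% interval -0.18 to 0.05, adjusted p = 0.552). SGK1, a kinase that keeps sodium and amino acid carriers at the membrane, measured 7.50 ± 0.02 with FAC and 7.69 ± 0.10 untreated (-0.19 ± 0.06, adjusted p = 0.173). OXSR1, a kinase of cation-chloride cotransporters, measured 10.41 ± 0.09 with FAC and 10.56 ± 0.04 untreated (-0.16 ± 0.06, adjusted p = 0.245).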

How the data were processed

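Per the labels' protocols, total RNA of 3 FAC-treated and 3 untreated ARPE-19 cultures was amplified into biotinylated cDNA, and 1 array was run for each culture. The authors deposited a table of 53617 probes whose values were taken as log2. No label states that scale: it rests on their range, 2.41 to 14.22, and every fold change here depends on it. The submitters' processing notes name RMA and Partek 6.6, with no order or role. A genome build was not given in the sources used here. The table has no detection calls or scan dates, and the number of arrays limits the precision.

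Through the platform annotation 16098 probes have 1 gene symbol, none has several and 37519 are unnamed here. The probe with the highest mean was taken for each of 14884 genes. The test was limma (version 3.58.1, R 4.3.3) with lmFit and eBayes, and p-values, 2-sided, were adjusted by Benjamini-Hochberg across the 14884 genes. A level with ± gives the mean and SD of the 3 arrays of a group in log2 units, and a change with ± gives FAC minus untreated and its SE. The procedure was tested on simulated data. Same-numbered arrays of the 2 groups did not deviate together (correlations of -0.023, -0.0263 and -0.15), so the numbers were not taken as pairs.

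The naming rule took every member past the threshold, the 2 smallest p-values of each class and a set of 32 carriers of known function, none of which had a named probe. With 21 members in all, every one is named, and SLC7A11-AS1, SLC51A and the genes with SLC synonyms were picked with their values in view. The members, lists and roles were chosen with earlier results of these data known. Alternatives were a filter on dim genes, quantile normalization, median centring, a trended robust prior, array weights, probe averages, all probes, the replicate block and leaving out each array.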

Additional observations from a re-analysis of the deposited data

How the results depend on the processing

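The 14 alternatives gave 293 values for single members, of which 284 kept their direction and their side of the threshold and 5 kept the direction and passed, those of SLC33A2, SLC75A1 and SLC60A2 given above. In 4 cases the sign turned on values near 0. SLC25A2 became 0.02 without FAC replicate 1 and 0.0058 without untreated replicate 1, within a range of -0.07 to 0.02 over single left-out arrays. SLC66A1 became -0.00018 without FAC replicate 3 and -0.0023 without untreated replicate 2, within a range of -0.0023 to 0.03. No member was higher past the threshold under any of the 14. Members lower past the threshold numbered 2 without the dimmest 33.3% of genes and 3 with the trended robust prior, and 0 under the other 12, the replicate block and each left-out array included. SLC20A1-DT and SV2B are among these dimmest genes and have no value under that filter. The count of all genes past the threshold, 555, became 840 without the dimmest genes, 1026 with the trended robust prior, 111 with every probe tested, 184 with the replicate block, and between 147 and 447 without 1 array. The filter tests fewer genes and also fits the variance prior anew, and leaving out an array removes a sample. What moved the counts was not tested for any setting. Without detection calls, a change of dim probes could be missed.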
